A study of Mus musculus with 8 samples.

Results

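The transcriptional response of IEC10 cells to interferon (IFN)-λ2 was examined on 5 of the 8 arrays of the series, namely 3 arrays from cultures that received IFN-λ2 (20 ng/mL, 9 h) and 2 from untreated cultures in medium (replicates 2 and 3). The question was which genes, beyond the antiviral response, were lowered or raised by the type III IFN. IEC10 is an immortalized intestinal epithelial cell line, according to the study's methods derived from a mouse that carries a luciferase reporter under the Mx2 promoter, so that all groups share this transgene. All cells had been kept for 21 days on transwell inserts, on which they polarize. The other 3 arrays, from cultures given IFN-β at a dose of 500 U/mL over the same 9 h, entered the same fit and are given beside single genes. The arrays of the comparison are assigned by their labels, and its members are all 25615 probes tested, with 20544 gene names. The labels do not say that replicates came from separate cultures, so that p-values measure the spread between these arrays, which may be technical.

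IFN-λ binds a receptor made of IFN-λ receptor 1 and the β chain of the IL-10 receptor, which in the gut is found mainly on epithelial cells. The receptor's kinases activate a complex of transcription factors, with STAT2 and IRF9 among its parts, that binds interferon-stimulated response elements in the promoters of antiviral genes. Type I IFNs such as IFN-β use another receptor and the same complex. How such a signal lowers transcripts is less well understood than how it raises them.

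Values are linear intensities in the array software's normalized units, scaled in each array to the same upper quartile and set to at least 15 units. They can be compared between arrays for one probe, not between genes. A gene is given by its brightest probe, and a change as the log2 difference between the group means with its SE from limma. A gene was counted as higher or lower at an adjusted p under 0.05 and a fold of at least 2, and as up or down at the adjusted p alone. The few arrays limit the precision of every value. The 5 arrays had between 20992 probes, in IFN-λ2 replicate 2, and 23788 probes, in control replicate 3, well above background, and none was saturated. The negative control features of IFN-λ2 replicate 2 also had the highest median, 7.47 units. A slide held the arrays of a single replicate number, and no control array of this comparison lay on slide 1. Each group had its own position on the slides, and position and treatment cannot be told apart.

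The cells carried epithelial markers in both groups. Epcam, an adhesion molecule of epithelia, measured 6544 and 5515 units in the control arrays and 6029, 5751 and 6911 units in the IFN-λ2 arrays, and the groups overlapped. Krt8, a keratin of simple epithelia, lay between 25948 and 35116 units on the 5 arrays. Of 26 tested brush border genes, 22 were well above background on all 5 arrays. The intestinal factor Cdx2 was at 15 units on every array and Fabp1, a fatty acid binding protein of enterocytes, was above this level on 1 of the 8 arrays. Of 11 tested markers of fibroblasts, endothelium, muscle and glia, 4 were well above background on all 5 arrays and none was called. Their summed level was 1157 and 1300 units in the control arrays and 1145 to 1253 units in the IFN-λ2 arrays. The fibroblast gene Col1a1 measured 26.6 and 20.8 units in the control arrays and 21.6, 15 and 15 units in the IFN-λ2 arrays, at or near the lowest level, and Ptprc, the pan-leukocyte antigen CD45, was at 15 units on all 5. Of 16 tested markers of immune cells only Coro1a was down (log2 change -0.56 ± 0.11, adjusted p = 0.017), a call lost without either control array or IFN-λ2 replicate 1 and with normexp, another background correction (adjusted p = 0.19), while Itgam (log2 change -1.31 ± 0.54, adjusted p = 0.14) was not called. The summed level of the 16 immune cell markers was 83532.5 and 88470.1 units in the control arrays. It was lower on all 3 IFN-λ2 arrays, at 79190.1, 71727.3 and 73732.3 units. Of these markers, 10 were well above background on all 5 arrays, and whether fewer immune cells played a part was not tested. In such bulk samples, fewer cells of a type and less RNA per cell cannot be told apart.

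After IFN-λ2, 590 genes (2.87% of all genes tested) were higher and 231 genes (1.12%) were lower. At the adjusted p alone 2282 genes were up (11.1%) and 1673 were down (8.14%), and the median log2 change of all genes was 0.02. Counted by probe, 701 were higher (2.74%) and 283 lower (1.10%), with 10.8% up and 8.25% down at the adjusted p alone. Of a list of known interferon response genes, 131 were among the higher genes and none among the lower ones, so that 459 higher genes stood outside the list. The falls were smaller than the rises. The median fold was 2.35 for the lower and 2.96 for the higher genes. Only 10 genes fell at least 4-fold, and 188 of the 231 lay between 2-fold and 3-fold, whereas 194 genes rose at least 4-fold, 105 of them outside the interferon response list. These folds take values at the floor as they stand, as for Gm4856, whose fall is given below as a bound. The median control level was 176 units for the lower genes and 79.5 units for the higher genes outside the interferon response list. For all genes tested it was 638 units, and these levels describe how near to background the probes lay. All 231 were well above background on both control arrays, and 155 on all 3 IFN-λ2 arrays.

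Derl3 had the largest fall of the lower genes. It codes for a derlin, a membrane protein of the endoplasmic reticulum (ER) that takes part in the removal of misfolded proteins. It measured 481 and 474 units in the control arrays and 94.9, 46.7 and 52.4 units in the IFN-λ2 arrays, a fall of 7.77-fold (log2 change -2.96 ± 0.44, adjusted p = 0.0051). All 3 IFN-λ2 arrays were far below both controls, and replicate 1 was the highest of them. The arrays with IFN-β measured 191 ± 78.4 units (SD, n = 3), and the difference between the IFNs missed the threshold (log2 difference -1.53, adjusted p = 0.051).

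Hnf4a, the nuclear receptor that drives enterocyte and hepatocyte genes, fell from 169 and 130 units in the control arrays to 28.8, 21.3 and 23.8 units (log2 change -2.60 ± 0.16, adjusted p = 8.8e-05). Its probe lies at chr2:163398548-163398607 of mm9, the build named in the array files. The signal was well above background on 2 of the 3 IFN-λ2 arrays, so that the fall is close to the limit of detection. With IFN-β it measured 120 ± 5.47 units (SD, n = 3), above all IFN-λ2 arrays (log2 difference -2.30, adjusted p = 0.00027). Gc, the vitamin D binding protein, measured 202 and 219 units in the control arrays and 39.4, 49.4 and 42.8 units in the IFN-λ2 arrays (log2 change -2.27 ± 0.21, adjusted p = 0.00072), and its second probe fell by 2.14. Clec18a, a secreted lectin, fell from 137 and 127 units to 18.8, 17.6 and 20.3 units (log2 change -2.80 ± 0.15, adjusted p = 4.1e-05), but it was well above background on 1 of the 3 IFN-λ2 arrays and its second probe, with a change of -0.88, was not called.

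Among the other genes with the largest falls, Wnt5a, a Wnt protein of the noncanonical pathway, measured 186 and 142 units in the control arrays and 30.4, 52.4 and 51.9 units in the IFN-λ2 arrays (log2 change -1.90 ± 0.26, adjusted p = 0.0037). Fgf5, a fibroblast growth factor, measured 214 and 149 units in the control arrays and 34.1, 59.8 and 44.0 units in the IFN-λ2 arrays (log2 change -2.0 ± 0.30, adjusted p = 0.0053). Slurp1, a secreted protein of stratified epithelia, fell from 325 and 268 units to 73.7, 56.8 and 74.0 units (log2 change -2.13 ± 0.15, adjusted p = 0.00022). The control and IFN-λ2 arrays were apart for each of these genes, as the choice of the largest falls required. Tac1, the precursor of substance P, measured 169 and 123 units in the control arrays and 35.1, 39.8 and 38.8 units in the IFN-λ2 arrays (log2 change -1.93 ± 0.14, adjusted p = 0.00025), and 2 of the 3 IFN-λ2 arrays were well above background. Nog, the BMP antagonist noggin, fell from 101 and 83.5 units to 15, 31.5 and 27.6 units (log2 change -1.97 ± 0.31, adjusted p = 0.0062). It was well above background on 1 of the 3 IFN-λ2 arrays, and its lowest value stood at the floor. Gli2, the transcription factor of the Hedgehog pathway, measured 48.8 and 53.1 units in the control arrays and 15 units in all 3 IFN-λ2 arrays, none well above background, so that it was at least 2.57-fold lower (adjusted p = 0.00022). Such a bound sets the mean of the brighter group against a detection limit in each dim array, which is the dimmest signal called well above background there or the probe's value if that is larger.

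Megf6 (log2 change -2.13 ± 0.19, adjusted p = 0.00061), Ogn, the small proteoglycan osteoglycin (log2 change -1.96 ± 0.37, adjusted p = 0.012), and Col8a2, a chain of type VIII collagen (log2 change -1.92 ± 0.33, adjusted p = 0.0083), were lower, although the second probes of Megf6 and Col8a2 changed by -0.30 and -0.04 and were not called. Ogn lost its call without control replicate 2. Nsg1, an endosomal protein of neurons, measured 439 and 366 units in the control arrays and 68.0, 132 and 82.6 units in the IFN-λ2 arrays (log2 change -2.15 ± 0.28, adjusted p = 0.0031). Cacna1g, a T-type calcium channel, measured 445 and 405 units in the control arrays and 115, 101 and 140 units in the IFN-λ2 arrays (log2 change -1.85 ± 0.15, adjusted p = 0.00036). Adcy1, an adenylyl cyclase, measured 120 and 120 units in the control arrays and 31.6, 36.6 and 28.2 units in the IFN-λ2 arrays (log2 change -1.91 ± 0.12, adjusted p = 0.00012), well above background on 2 of the 3 IFN-λ2 arrays. No array overlapped between the groups in these 3 genes, again a condition of their choice. Crmp1, a cytoplasmic protein of growing axons, measured 89.5 and 96.4 units in the control arrays and 18.7, 23.1 and 27.0 units in the IFN-λ2 arrays (log2 change -2.03 ± 0.17, adjusted p = 0.00037), and was well above background on 1 of the 3 IFN-λ2 arrays.

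The rest of the 30 largest falls held 7 named genes, among them Tcim, which is described with the bright genes, and 6 known only by clone or model names. Slc17a1, a phosphate transporter, measured 212 and 226 units in the control arrays and 72.0, 55.9 and 68.7 units in the IFN-λ2 arrays (log2 change -1.75 ± 0.13, adjusted p = 0.00024). Prdm8, a histone methyltransferase family factor, measured 138 and 111 units in the control arrays and 34.7, 31.6 and 47.8 units in the IFN-λ2 arrays (log2 change -1.73 ± 0.18, adjusted p = 0.0012). Nexn, the actin binding protein nexilin, measured 292 and 221 units in the control arrays and 37.2, 97.8 and 86.7 units in the IFN-λ2 arrays (log2 change -1.90 ± 0.40, adjusted p = 0.018), and lost its call without either control array. The control arrays were above the IFN-λ2 arrays in these 3 genes, by the same condition of choice. Armcx2 (log2 change -1.84 ± 0.24, adjusted p = 0.0031) and Cd1d1, which presents lipids to T cells (log2 change -1.77 ± 0.34, adjusted p = 0.013), were lower too, Cd1d1 not without control replicate 2. Pilra, an inhibitory receptor, and the gene model Gm4856 were not well above background on any IFN-λ2 array and were at least 2.64-fold and 3.66-fold lower. The second probe of Pilra, with a change of 0.03, was not called. The genes Pilra and Gm4856 did not differ between the IFNs at the threshold, as Pilra was also at 15 units with IFN-β (adjusted p = 1 for the difference) and Gm4856 measured 17.6 ± 4.45 units (SD, n = 3, adjusted p = 0.69).

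**Figure D1:**
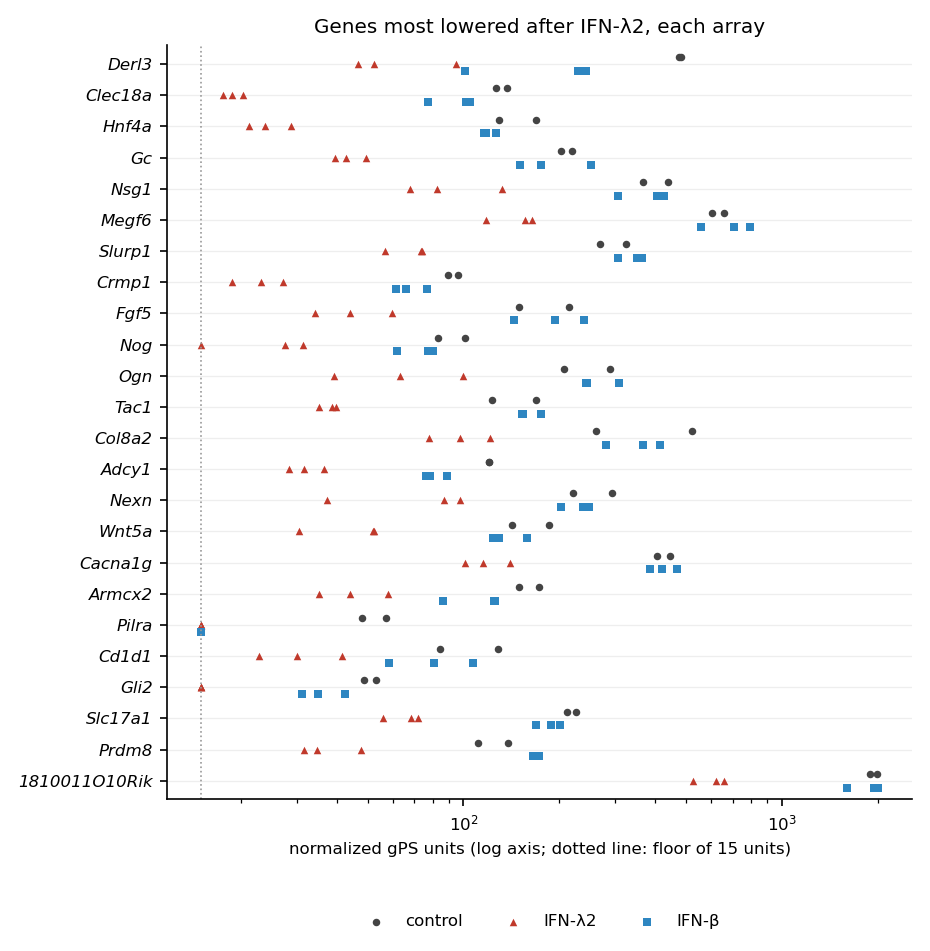
The most lowered genes, with the level of each array in normalized gPS units on a log axis (circles, control, triangles, IFN-λ2, squares, IFN-β; the dotted line marks the floor of 15 units). The triangles lie left of both circles for every gene, which was a condition for choosing these genes. Hnf4a, for example, had 21.3 to 28.8 units after IFN-λ2 against 130 and 169 units in the control arrays.

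Most of these genes are dim, and the falls were smaller with another correction of the background. With normexp, which models background in place of subtracting it, all 231 lower genes kept a change below 0, with a median of -0.69 in place of -1.23, and 126 were still down at the adjusted p, 61 of them also by 2-fold. Of the 30 genes with the largest fall, 20 kept the adjusted p. Nog (adjusted p = 0.087 with normexp), Crmp1 (0.072) and Gli2 (0.17) were among those that lost it, as were Pilra (0.15), Gm4856 (0.091) and Cd1d1 (0.088), whereas Derl3 (-1.86, adjusted p = 0.0083) and Hnf4a (-1.04, adjusted p = 0.015) kept it with a smaller change. The falls of Clec18a (-1.05), Gc (-1.14), Nsg1 (-1.41), Slurp1 (-1.30), Fgf5 (-1.07), Ogn (-1.08), Tac1 (-0.84), Adcy1 (-0.70), Nexn (-1.12), Wnt5a (-0.85), Armcx2 (-0.87), Slc17a1 (-1.03) and Prdm8 (-0.81) also shrank by over 1.5 times on the log2 scale and kept the adjusted p. Of the 111 lower genes with a control mean of at least 200 units, 106 kept the adjusted p with normexp, and of the 37 with at least 1000 units all 37 did. The median of all probes tested moved from 0.02 to 0.11 with normexp.

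**Figure D2:**
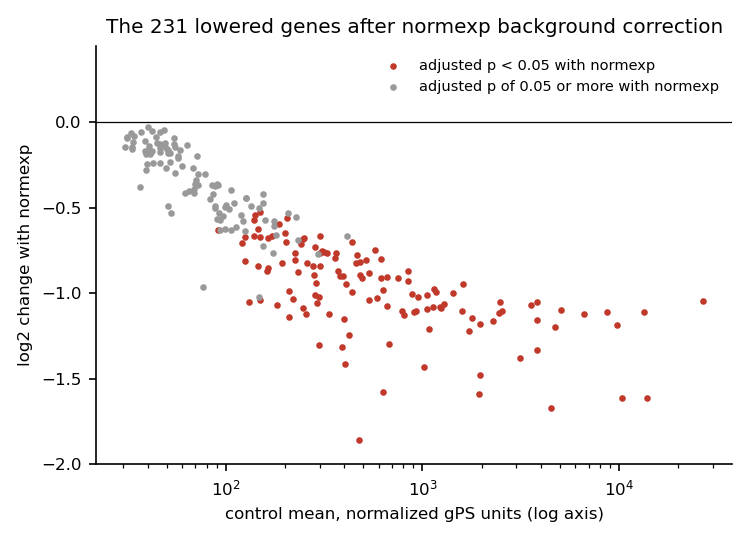
The 231 lower genes after the normexp background correction, with the log2 change on the vertical axis against the control mean in normalized gPS units on a log axis (red, adjusted p under 0.05 with normexp, grey, 0.05 or more). Genes with a control mean of at least 1000 units, 37 in number, are all red, and the grey points lie mainly among the dim genes.

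The 37 bright genes are a group chosen after the values were seen. Of these, 31 kept the adjusted p whichever array was left out, and 33 lay below the IFN-β arrays at the adjusted p, where 11.9% of all genes differed in either direction. The IFN-λ2 arrays are the same in both comparisons. Tcim, listed on the array as 1810011O10Rik and known as a positive regulator of Wnt signaling, measured 1885 and 1985 units in the control arrays and 526, 657 and 619 units in the IFN-λ2 arrays (log2 change -1.69 ± 0.13, adjusted p = 0.00031), and its second probe fell by 1.52. Kctd15, a repressor of neural crest formation, measured 5121 and 3904 units in the control arrays and 1296, 1359 and 1611 units in the IFN-λ2 arrays (log2 change -1.66 ± 0.16, adjusted p = 0.00074). Ramp3, the partner that turns the calcitonin receptor-like receptor into an adrenomedullin receptor, measured 14445 and 13434 units in the control arrays and 4462, 4708 and 4599 units in the IFN-λ2 arrays (log2 change -1.60 ± 0.11, adjusted p = 0.00018). The 3 IFN-λ2 values of Ramp3 lie within a narrow range far below the control arrays. Cxcl14, a chemokine made by resting epithelia, fell from 2125 and 1794 units to 634, 638 and 720 units (log2 change -1.56 ± 0.17, adjusted p = 0.0013), and with IFN-β it was at 2103 ± 396 units (SD, n = 3). Cldn6, a claudin of immature epithelia, measured 1539 and 1898 units in the control arrays and 553, 671 and 678 units in the IFN-λ2 arrays (log2 change -1.44 ± 0.13, adjusted p = 0.00064). Foxo6, a forkhead factor, measured 3354 and 2888 units in the control arrays and 1190, 1211 and 1183 units in the IFN-λ2 arrays (log2 change -1.38 ± 0.09, adjusted p = 0.00014). Cdkn1c, the cyclin-dependent kinase inhibitor p57, measured 2367 and 2693 units in the control arrays and 1165, 1180 and 1122 units in the IFN-λ2 arrays (log2 change -1.13 ± 0.09, adjusted p = 0.00032), and Glul, glutamine synthetase, 2098 and 2478 units in the control arrays and 928, 1087 and 1027 units in the IFN-λ2 arrays (log2 change -1.17 ± 0.12, adjusted p = 0.00094). In none of these genes did the groups overlap.

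Some genes of the unfolded protein response were down. Proteins that enter the ER are folded by chaperones and disulfide isomerases, and misfolded ones are sent back to the cytosol for degradation. When the load rises, the unfolded protein response, through ATF6 and XBP1, raises these genes by way of an ER stress element in their promoters, while PERK and ATF4 raise genes of amino acid supply. Of 55 genes of the unfolded protein and amino acid response, all of them tested, 18 were down and 7 up at the adjusted p, against 8.14% and 11.1% of all genes. The median of the list was -0.07. The other 30 genes were not called. The members are described by their known roles, a grouping made after the values were seen.

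Only Derl3, Dnajc3 and Sdf2l1 fell at least 2-fold. Dnajc3, the co-chaperone p58IPK, measured 1485 and 1697 units in the control arrays and 773, 646 and 657 units in the IFN-λ2 arrays (log2 change -1.20 ± 0.19, adjusted p = 0.0062). Sdf2l1, a chaperone partner, measured 7499 and 5707 units in the control arrays and 3383, 2984 and 2864 units in the IFN-λ2 arrays (log2 change -1.09 ± 0.19, adjusted p = 0.0091), and lost its call without control replicate 2. Some bright chaperones fell by less. Hsp90b1, the ER HSP90 protein GRP94, measured 70616 and 61869 units in the control arrays and 39889, 34840 and 35230 units in the IFN-λ2 arrays (log2 change -0.85 ± 0.13, adjusted p = 0.0055). Pdia6, a disulfide isomerase, measured 91190 and 79585 units in the control arrays and 52164, 47221 and 48620 units in the IFN-λ2 arrays (log2 change -0.79 ± 0.11, adjusted p = 0.0032), and the lectin chaperone Calr, calreticulin, 33102 and 31637 units in the control arrays and 22222, 21273 and 22344 units in the IFN-λ2 arrays (log2 change -0.56 ± 0.08, adjusted p = 0.0046). The control arrays lay above all IFN-λ2 arrays in each gene. Hspa5, the master chaperone BiP, fell by 0.42, from 121620 and 126690 units to 99608, 91691 and 88235 units (adjusted p = 0.039), and lost its call in 6 of the 8 fits that left out 1 array. Creld2 (-0.85), Hyou1 (-0.76), Xbp1 (-0.71), Edem1 (-0.69), Manf (-0.66), Pdia3 (-0.62) and Sel1l (-0.53) were down as well. Of these, all but Sel1l lost their call without control replicate 2, and Creld2, Hyou1, Xbp1 and Pdia3 also without control replicate 3. Xbp1 and Manf lost it whenever 1 IFN-λ2 array was left out, and Hyou1 and Edem1 without IFN-λ2 replicate 2 or 3. With normexp Hyou1 (adjusted p = 0.095) and Edem1 (adjusted p = 0.08) lost it. Canx, calnexin, with 44137 and 35950 units in the control arrays and 39645, 36801 and 41329 units in the IFN-λ2 arrays, and Syvn1, an ubiquitin ligase of ER degradation, with a log2 change of 0.07, were not called.

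On the amino acid side, Slc3a2, the heavy chain of amino acid transporters, measured 49430 and 47715 units in the control arrays and 66469, 70390 and 65406 units in the IFN-λ2 arrays (log2 change 0.47 ± 0.08, adjusted p = 0.0066). Asns, asparagine synthetase, measured 64260 and 55286 units in the control arrays and 78895, 80045 and 77509 units in the IFN-λ2 arrays (log2 change 0.40 ± 0.09, adjusted p = 0.024). Asns lost its call without control replicate 3 or any of the 3 IFN-λ2 arrays. Psat1 (0.48), Slc7a11 (0.46), Mthfd2 (0.38) and Chac1 (0.36) were up, each with its call lost in 4 to 6 of the 8 fits without 1 array. Atf4 itself (log2 change 0.31 ± 0.14, adjusted p = 0.16) was not called, and Ddit3, the stress factor CHOP, was down (log2 change -0.39 ± 0.10, adjusted p = 0.039, and 0.075 with the replicate number as a block), a call lost in 6 of these 8 fits and with normexp (adjusted p = 0.06). With normexp, 13 genes of the list were down and none was up, so that the raised side depends on the background correction, and with the block 13 were down and 4 up. Leaving out 1 control or IFN-λ2 array left 6 to 12 genes down, the fewest without control replicate 2, where 5.58% of all genes were down, and 1 to 3 up. Against the IFN-β arrays, the direct contrast called 2 of the 55 genes, Pdia6 and Calr, lower with IFN-λ2 and 5, including Slc7a11 and Slc3a2, higher. Of all genes 11.9% differed in either direction, which is near the share in this list. The arrays with IFN-β measured 872 ± 194 units for Dnajc3 and 46416 ± 5818 units for Hsp90b1 (SD, n = 3).

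**Figure D3:**
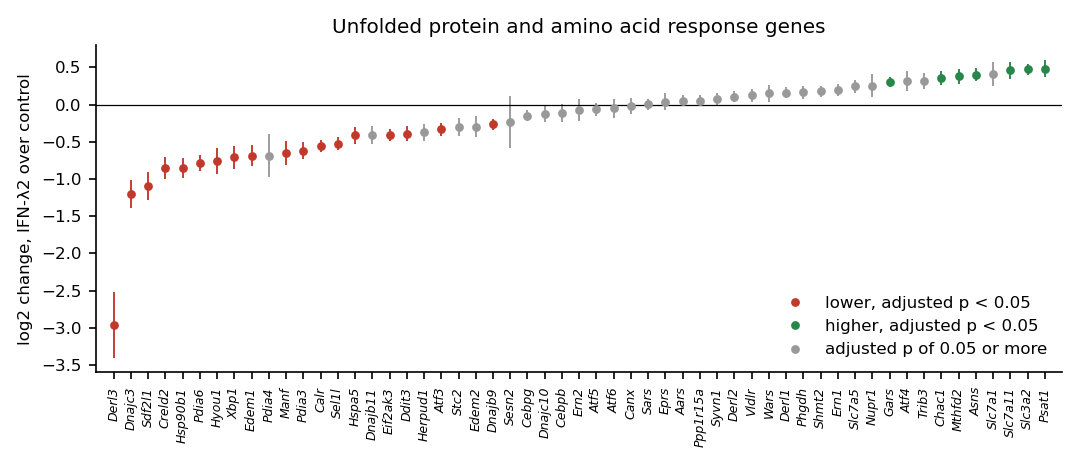
Log2 change after IFN-λ2 over control of the 55 genes of the unfolded protein and amino acid response, ordered by their change (points, estimates, bars, SE from limma; red, down, green, up, grey, adjusted p of 0.05 or more). Derl3 stands alone at -2.96, 18 genes are red and 7 are green.

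The promoter windows of these genes were searched for the ER stress element, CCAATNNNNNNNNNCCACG on either strand, a search added after the values were seen. Windows run from 250 bases before to 50 after the start of a gene and come from RefSeq on GRCm38.p6. Of 32851 windows, 39 (0.119%) held the element. Of the 18 lowered genes of the list, 16 had a window and 7 of these windows (43.8%) held it, against 2 of the 37 windows (5.41%) of the other genes of the list, those of Canx and Syvn1. The 7 genes were Derl3, Dnajc3, Creld2, Hsp90b1, Pdia6, Calr and Hspa5. The other genes include those of amino acid supply, so that the shares also reflect the make-up of the list and tie no element to the fall. Among all genes tested, 21 had the element, of which 8 were down, the one outside the list being Ero1b with a log2 change of -0.51, and 1, Spats2l, with a log2 change of 1.77, was up. A match describes the letters alone. The windows of the gene with the largest fall, of the lowered co-chaperone and of the chaperones GRP94 and BiP are shown, at chr10:75893148-75893447 on the plus strand for Derl3, chr14:118937682-118937981 on the plus strand for Dnajc3, chr10:86705395-86705694 on the minus strand for Hsp90b1 and chr2:34771840-34772139 on the plus strand for Hspa5, read 5′ to 3′ along the gene, with each element in capitals. Hsp90b1 has 2 of them.
Derl3: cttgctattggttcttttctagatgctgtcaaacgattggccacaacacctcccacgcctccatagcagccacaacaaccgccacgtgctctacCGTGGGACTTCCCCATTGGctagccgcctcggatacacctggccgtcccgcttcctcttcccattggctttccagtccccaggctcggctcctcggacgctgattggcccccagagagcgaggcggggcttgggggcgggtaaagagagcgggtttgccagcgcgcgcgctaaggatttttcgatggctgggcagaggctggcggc
Dnajc3: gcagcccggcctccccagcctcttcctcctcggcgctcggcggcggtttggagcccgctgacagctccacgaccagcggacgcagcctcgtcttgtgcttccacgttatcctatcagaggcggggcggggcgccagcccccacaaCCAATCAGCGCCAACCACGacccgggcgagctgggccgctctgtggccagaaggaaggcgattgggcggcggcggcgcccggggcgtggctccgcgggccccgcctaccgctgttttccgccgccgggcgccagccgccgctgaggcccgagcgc
Hsp90b1: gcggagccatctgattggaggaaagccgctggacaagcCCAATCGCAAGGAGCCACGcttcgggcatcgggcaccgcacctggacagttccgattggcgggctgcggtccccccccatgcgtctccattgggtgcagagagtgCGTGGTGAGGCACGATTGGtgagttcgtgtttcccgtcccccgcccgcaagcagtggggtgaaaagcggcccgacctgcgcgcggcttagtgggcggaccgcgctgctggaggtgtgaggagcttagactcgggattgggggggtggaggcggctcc
Hspa5: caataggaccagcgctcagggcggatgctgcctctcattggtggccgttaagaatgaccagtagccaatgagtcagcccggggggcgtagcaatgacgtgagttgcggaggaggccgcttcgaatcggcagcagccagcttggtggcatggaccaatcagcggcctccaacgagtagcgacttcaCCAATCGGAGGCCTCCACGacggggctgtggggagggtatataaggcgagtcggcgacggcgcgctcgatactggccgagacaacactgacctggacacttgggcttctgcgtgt

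Mesenchymal genes, matrix genes and adhesion receptors were down more often than up, with most members not down. These genes give a cell its hold on the matrix and, in epithelia, mark a partial mesenchymal state, which cultured lines often show. Of 31 tested mesenchymal and smooth muscle genes, 14 were down, 4 of them at least 2-fold, and 3 up, with a median of -0.34. These are 45.2% and 9.68% of the list, against 8.14% down and 11.1% up of all genes. With normexp 7 were down, and 8 to 14 were down when 1 control or IFN-λ2 array was left out, the fewest without control replicate 3 or IFN-λ2 replicate 1. Cnn1, the smooth muscle protein calponin, measured 197 and 221 units in the control arrays and 65.3, 80.7 and 67.5 units in the IFN-λ2 arrays (log2 change -1.56 ± 0.12, adjusted p = 0.00028). Among the transcription factors that repress epithelial genes, Twist1 measured 287 and 313 units in the control arrays and 117, 135 and 125 units in the IFN-λ2 arrays (log2 change -1.25 ± 0.13, adjusted p = 0.0011). Zeb1 measured 362 and 365 units in the control arrays and 153, 162 and 193 units in the IFN-λ2 arrays (log2 change -1.11 ± 0.11, adjusted p = 0.00082). Twist2 (-0.86), Snai2 (-0.90) and Zeb2 (-0.85) were down as well, although Snai2 lost its call without control replicate 2 or IFN-λ2 replicate 1, and Zeb2 without either control array or IFN-λ2 replicate 1 or 3, and both lost it with normexp (adjusted p = 0.081 and 0.072). The change of Cnn1 was -0.99 with normexp. The intermediate filament Vim, vimentin, measured 10894 and 13858 units in the control arrays and 6517, 6144 and 7808 units in the IFN-λ2 arrays (log2 change -0.86 ± 0.14, adjusted p = 0.0075), and with IFN-β 13497 ± 778 units (SD, n = 3). None of these 4 genes given by array overlapped between the groups. Snai1 (-0.49, adjusted p = 0.23) and Cdh2, N-cadherin (-0.36, adjusted p = 0.092), were not called. E-cadherin, Cdh1, was up (log2 change 0.45 ± 0.10, adjusted p = 0.025, and 0.071 with the block), a call lost with normexp (adjusted p = 0.061) and without either control array or IFN-λ2 replicate 1 or 3. The growth factor Bmp7 of the list rose from 574 and 547 units to 1170, 1237 and 1162 units (log2 change 1.09 ± 0.14, adjusted p = 0.0025), with IFN-β at 568 ± 99.7 units (SD, n = 3).

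Of 62 tested genes of the extracellular matrix and its enzymes, 17 were down, 10 of them at least 2-fold, and 9 were up, with a median of -0.23. These are 27.4% and 14.5%, against 8.14% and 11.1% of all genes. With normexp 13 were down and the median was 0.02. Sparc, a secreted glycoprotein that binds collagen, measured 27606 and 25963 units in the control arrays and 11765, 14848 and 12740 units in the IFN-λ2 arrays (log2 change -1.04 ± 0.12, adjusted p = 0.0015). Col6a1, a chain of type VI collagen, measured 1233 and 1340 units in the control arrays and 571, 634 and 576 units in the IFN-λ2 arrays (log2 change -1.12 ± 0.08, adjusted p = 0.00026). Tgfbi, an adhesion protein of the matrix, measured 299 and 280 units in the control arrays and 96.3, 109 and 102 units in the IFN-λ2 arrays (log2 change -1.5 ± 0.19, adjusted p = 0.0025). The groups were well apart in each. Matrix enzymes moved in both directions. Mmp11 (-1.20), Mmp2 (-1.11), Mmp15 (-1.09), Adamts5 (-1.21) and the crosslinking enzyme Loxl1 (-1.05) were lower, Adamts5 not without control replicate 3. With normexp the changes of Mmp2 (-0.70) and Loxl1 (-0.70) were smaller. Mmp7, the matrilysin of Paneth cells that activates antimicrobial peptides, rose from 327 and 469 units to 4173, 6001 and 4446 units (log2 change 3.62 ± 0.20, adjusted p = 5e-05), and Timp3, an inhibitor of metalloproteinases, from 382 and 670 units to 1765, 1612 and 1216 units (log2 change 1.58 ± 0.27, adjusted p = 0.009). Serpine2, a protease inhibitor of the matrix, fell (log2 change -1.11 ± 0.17, adjusted p = 0.0057), and Col17a1, a collagen of hemidesmosomes, was at least 2.72-fold higher (adjusted p = 0.042), a call lost with normexp (adjusted p = 0.084) and without either control array or IFN-λ2 replicate 1 or 3. Lama3, a laminin chain of the epithelial basement membrane, was higher too (log2 change 1.13 ± 0.13, adjusted p = 0.0018). Postn, periostin, had a large change but spread widely between arrays and was not called (log2 change -1.71 ± 0.49, adjusted p = 0.052).

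Of 35 tested integrins and adhesion receptors, 15 were down, 4 of them at least 2-fold, and 2 up, with a median of -0.36. These are 42.9% and 5.71%, against 8.14% and 11.1% of all genes. With normexp 7 were down, and without control replicate 2 it was 9. Gpc1, a heparan sulfate proteoglycan, measured 4387 and 3286 units in the control arrays and 1762, 1570 and 1904 units in the IFN-λ2 arrays (log2 change -1.13 ± 0.19, adjusted p = 0.0083), and lost its call without control replicate 2. The integrin β chain Itgb3 measured 523 and 506 units in the control arrays and 250, 248 and 264 units in the IFN-λ2 arrays (log2 change -1.02 ± 0.11, adjusted p = 0.0011), while its second probe, with a change of -0.10, was not called. Nectin1, listed as Pvrl1, measured 131 and 108 units in the control arrays and 40.3, 52.9 and 46.9 units in the IFN-λ2 arrays (log2 change -1.36 ± 0.15, adjusted p = 0.0015), and lost its call with normexp (log2 change -0.54, adjusted p = 0.055). Cdh11, a cadherin of mesenchymal cells, was lower (log2 change -1.64 ± 0.45, adjusted p = 0.046) but lost its call in 6 of the 8 fits that left out 1 array and with normexp (adjusted p = 0.079), and its second probe, with a change of -0.46, was not called. Alcam, an adhesion molecule of the immunoglobulin family, was the one member at least 2-fold higher and measured 80.6 and 84.3 units in the control arrays and 221, 204 and 203 units in the IFN-λ2 arrays (log2 change 1.34 ± 0.07, adjusted p = 5.6e-05). In the direct contrast with IFN-β, 14 of the 31 mesenchymal genes, 19 of the 62 matrix genes and 17 of the 35 adhesion genes were lower with IFN-λ2, and 2, 6 and 3 of them were higher, while 11.9% of all genes differed in either direction. The same IFN-λ2 arrays serve this contrast and the one with the control arrays. The summed level of the fibroblast, endothelial, muscle and glial markers given above overlapped between the groups. Only 4 of the 11 tested markers were well above background on all 5 arrays, and whether fewer such cells played a part was not tested.

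**Figure D4:**
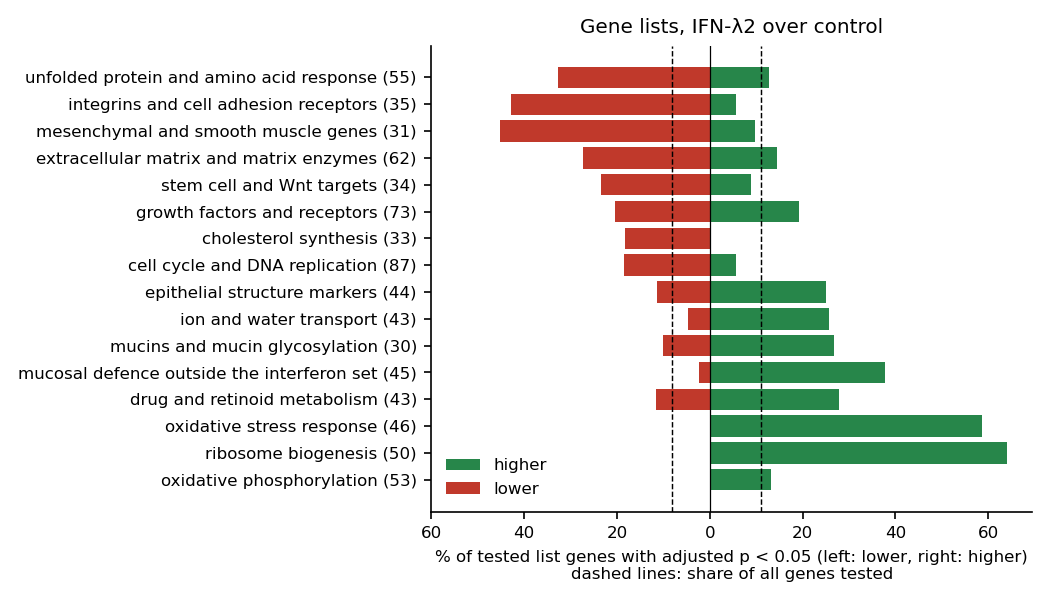
Share of the tested genes of 16 lists that were down (red, to the left) or up (green, to the right) at the adjusted p, in percent. Dashed lines mark the share of all genes tested, 8.14% down and 11.1% up, and the number tested stands beside each list. Adhesion, mesenchymal, unfolded protein and matrix genes extend furthest to the left, and ribosome biogenesis and oxidative stress genes to the right.

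Of 34 tested stem cell and Wnt target genes, 8 were down and 3 up (23.5% and 8.82%, against 8.14% and 11.1% of all genes). The lowered count fell to 2 with normexp or without control replicate 2 and to 4 with the block. Dkk3, a dickkopf family protein, measured 3554 and 3556 units in the control arrays and 1610, 1491 and 2004 units in the IFN-λ2 arrays (log2 change -1.07 ± 0.13, adjusted p = 0.0022). Lgr6, an R-spondin receptor, was well above background on 1 of the 3 IFN-λ2 arrays (75.3 and 64.5 units in the control arrays and 15, 21.9 and 34.8 units in the IFN-λ2 arrays, adjusted p = 0.017, and 0.22 with normexp), and lost its call without either control array. Apcdd1, a Wnt inhibitor, was lower (log2 change -1.08 ± 0.24, adjusted p = 0.023), with an adjusted p of 0.68 with normexp and its call lost in 4 of the fits without 1 array, and Hopx, a homeodomain protein, was at least 2.83-fold higher (adjusted p = 0.0061, and 0.07 with normexp). The stem cell receptor Lgr5 was at 15 units on all arrays. Outside the list, the Wnt receptors Fzd2 (1084 and 943 units in the control arrays and 291, 368 and 370 units in the IFN-λ2 arrays, adjusted p = 0.0008) and Fzd1 (2668 and 2300 units in the control arrays and 1114, 1275 and 1254 units in the IFN-λ2 arrays, adjusted p = 0.0031) were lower and were named after their values were seen. Ccnd1, cyclin D1, which is also a Wnt target, rose instead, from 3539 and 4038 units to 14995, 14613 and 14388 units (log2 change 1.96 ± 0.08, adjusted p = 1.2e-05), with 5088 ± 85.9 units after IFN-β (SD, n = 3). Its 3 IFN-λ2 arrays lay within a narrow range well above the controls.

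Of 73 tested growth factors and their receptors, 15 were down and 14 up (20.5% and 19.2%, against 8.14% and 11.1% of all genes), 6 and 4 of them at least 2-fold. Nrg4, a neuregulin that protects gut epithelium, measured 141 and 151 units in the control arrays and 53, 58.3 and 59.4 units in the IFN-λ2 arrays (log2 change -1.36 ± 0.10, adjusted p = 0.00022), with a change of -0.62 with normexp. The receptor Fgfr4 measured 467 and 490 units in the control arrays and 205, 239 and 215 units in the IFN-λ2 arrays (log2 change -1.13 ± 0.09, adjusted p = 0.0003). The ephrins Efna4 (log2 change -1.24 ± 0.12, adjusted p = 0.00092) and Efna1 (log2 change -1.02 ± 0.19, adjusted p = 0.012) and the ephrin receptor Epha7 (log2 change -1.03 ± 0.09, adjusted p = 0.00041) were lower, and Efna1 lost its call without control replicate 2 and Epha7 with normexp (adjusted p = 0.075). Bdnf, the brain-derived neurotrophic factor, measured 365 and 270 units in the control arrays and 133, 178 and 161 units in the IFN-λ2 arrays (log2 change -1.01 ± 0.16, adjusted p = 0.0069). The highest of the raised members was Artn, the neurotrophic factor artemin, with 82.4 and 87.9 units in the control arrays and 575, 536 and 499 units in the IFN-λ2 arrays (log2 change 2.65 ± 0.11, adjusted p = 1.3e-05), and with 74.1 ± 7.33 units after IFN-β (SD, n = 3). Btc, an EGF receptor ligand, and Dll1, a Notch ligand, rose (log2 change 1.48 ± 0.25, adjusted p = 0.0076 and log2 change 1.34 ± 0.14, adjusted p = 0.001), and in these the difference between IFN-λ2 and IFN-β did not pass (log2 difference 0.27, adjusted p = 0.51 and log2 difference 0.18, adjusted p = 0.39). With normexp 9 genes were down and 6 up, and leaving out 1 control or IFN-λ2 array left 10 to 13 down and 6 to 12 up, the fewest up without control replicate 3.

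Factors of epithelial identity moved in both directions. Of 38 tested, 11 were up and 7 down (28.9% and 18.4%, against 11.1% and 8.14% of all genes), with a median of -0.04. However, 3 were up without control replicate 3, 1 was down without IFN-λ2 replicate 1, and 6 were up and 3 down with normexp or with the block. Hnf4a was the one factor at least 2-fold lower. Foxa1, a pioneer factor of endodermal epithelia, measured 627 and 484 units in the control arrays and 1989, 1540 and 1590 units in the IFN-λ2 arrays (log2 change 1.62 ± 0.15, adjusted p = 0.00074). Pparg, a nuclear receptor of fatty acids, measured 68.0 and 67.5 units in the control arrays and 230, 185 and 147 units in the IFN-λ2 arrays (log2 change 1.44 ± 0.17, adjusted p = 0.0018). Pitx1, a homeobox factor, measured 15 and 22.4 units in the control arrays, 1 of them well above background, and 205, 233 and 142 units after IFN-λ2 (log2 change 3.37 ± 0.24, adjusted p = 0.00019). With IFN-β, Foxa1 measured 470 ± 31.6 units and Pparg 64.7 ± 1.57 units (SD, n = 3), and Pitx1 was at 15 units on all 3 arrays. Gata6 was up (log2 change 0.55 ± 0.14, adjusted p = 0.036), a call lost with normexp (adjusted p = 0.083) and in 6 of the 8 fits without 1 array. The change of Pitx1 was 2.04 with normexp. The factors Klf4 (-0.22, adjusted p = 0.31) and Klf5 (-0.17, adjusted p = 0.17) were not called.

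Of 43 tested genes of ion and water transport, 11 were up, 5 at least 2-fold, and 2 were down (25.6% and 4.65%, against 11.1% and 8.14% of all genes). Scnn1a, the α subunit of the epithelial sodium channel ENaC, measured 566 and 561 units in the control arrays and 4548, 4063 and 3445 units in the IFN-λ2 arrays (log2 change 2.83 ± 0.14, adjusted p = 3.1e-05). Tesc, a calcium binding partner of the sodium-proton exchanger NHE1, measured 368 and 292 units in the control arrays and 2463, 2149 and 1539 units in the IFN-λ2 arrays (log2 change 2.62 ± 0.20, adjusted p = 0.00026). The water channel Aqp1 measured 2922 and 3452 units in the control arrays and 14978, 10063 and 10718 units in the IFN-λ2 arrays (log2 change 1.89 ± 0.22, adjusted p = 0.0017). All IFN-λ2 arrays lay above the control arrays in these genes. The anion exchanger Slc26a4 (log2 change 1.07 ± 0.13, adjusted p = 0.0023) and the kinase Sgk1, which keeps ENaC at the membrane (log2 change 1.05 ± 0.09, adjusted p = 0.00047), rose as well. With IFN-β, Scnn1a measured 656 ± 71.1 units (SD, n = 3), which was lower than with IFN-λ2 (log2 difference 2.61, adjusted p = 0.00012).

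Single genes of mucus and mucosal defence rose too, while most members of both lists were not called. Of 30 tested mucins and mucin glycosyltransferases, 8 were up and 3 down, where none was down with normexp or in 4 of the 5 fits that left out a control or IFN-λ2 array, all but the one without IFN-λ2 replicate 3. The raised share was 26.7%, against 11.1% of all genes. Muc20 and Muc4, membrane mucins, measured 4267 and 3760 units in the control arrays and 15328, 14203 and 11735 units in the IFN-λ2 arrays (log2 change 1.77 ± 0.15, adjusted p = 0.00038) and 84.9 and 104 units in the control arrays and 496, 327 and 324 units in the IFN-λ2 arrays (log2 change 1.99 ± 0.20, adjusted p = 0.001). Gcnt3, an enzyme of mucin-type O-glycans, was below the detection limit on both control arrays and reached 154, 90.7 and 105 units after IFN-λ2, at least 6.86-fold higher (adjusted p = 0.00025). The glycosyltransferases Fut4 (log2 change 1.16 ± 0.14, adjusted p = 0.002, and 0.68 with normexp) and Gcnt1 (log2 change 1.13 ± 0.13, adjusted p = 0.0017) were higher. The tetraspanin Tspan1 measured 28.5 and 31.0 units in the control arrays and 268, 239 and 174 units in the IFN-λ2 arrays (log2 change 2.91 ± 0.18, adjusted p = 9.6e-05). The rise of Tspan1 was 1.83 with normexp. The gel-forming mucin Muc2 was at 15 units on every array. Of 45 tested genes of mucosal defence outside the interferon response, 17 were up, 12 at least 2-fold, and 1 was down (37.8% and 2.22%). Napsa, an aspartic protease, measured 57.5 and 67.0 units in the control arrays and 579, 686 and 565 units in the IFN-λ2 arrays (log2 change 3.29 ± 0.17, adjusted p = 3.9e-05). Spink2, a Kazal-type protease inhibitor, measured 31.9 and 29.8 units in the control arrays and 299, 278 and 250 units in the IFN-λ2 arrays (log2 change 3.16 ± 0.09, adjusted p = 2.7e-06, and 1.97 with normexp). The study also reports a smaller rise of Spink2 with IFN-β. Pglyrp1, a peptidoglycan recognition protein, measured 85.0 and 78.5 units in the control arrays and 388, 328 and 316 units in the IFN-λ2 arrays (log2 change 2.07 ± 0.11, adjusted p = 4.5e-05). Ccl28, a mucosal chemokine that draws plasma cells, measured 97.7 and 97.1 units in the control arrays and 421, 382 and 342 units in the IFN-λ2 arrays (log2 change 1.96 ± 0.27, adjusted p = 0.0038). In each of these the IFN-λ2 arrays were all higher than the controls. Xdh, xanthine oxidoreductase, was at least 8.76-fold higher (adjusted p = 9.2e-05), and Noxo1, an organizer of the NADPH oxidase NOX1, measured 1161 and 1107 units in the control arrays and 2900, 2825 and 3039 units in the IFN-λ2 arrays (log2 change 1.36 ± 0.09, adjusted p = 0.00011). Complement C3 (log2 change 1.04 ± 0.17, adjusted p = 0.0079) was higher, and Pigr, the receptor that carries IgA to the lumen, was not called (0.10, adjusted p = 0.76).

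The oxidative stress response had no lowered member. Of 46 tested genes, most of them targets of the factor NRF2 or glutathione enzymes, 27 were up, 10 at least 2-fold, and none was down, with a median of 0.46. The raised share was 58.7%, against 11.1% of all genes. The count was 21 with normexp and 19 to 23 when 1 control or IFN-λ2 array was left out. Gstm2, a glutathione transferase, measured 11270 and 11021 units in the control arrays and 39033, 39801 and 36253 units in the IFN-λ2 arrays (log2 change 1.78 ± 0.09, adjusted p = 2.8e-05). Gsta3 measured 1010 and 990 units in the control arrays and 4985, 4731 and 3738 units in the IFN-λ2 arrays (log2 change 2.15 ± 0.14, adjusted p = 0.00014). For both, closely similar transferases can share a probe's signal, so that the gene behind it is uncertain. Abcc3, an exporter of conjugates, measured 212 and 207 units in the control arrays and 733, 694 and 471 units in the IFN-λ2 arrays (log2 change 1.57 ± 0.18, adjusted p = 0.0018), and Mgst1, a microsomal transferase, 297 and 203 units in the control arrays and 735, 703 and 649 units in the IFN-λ2 arrays (log2 change 1.5 ± 0.22, adjusted p = 0.0046). The groups did not overlap in these genes. Some classical NRF2 targets rose by less, and others were not called. Nqo1 (log2 change 0.87 ± 0.10, adjusted p = 0.0015), Hmox1 (log2 change 0.64 ± 0.09, adjusted p = 0.0046) and Txnrd1 (log2 change 0.59 ± 0.09, adjusted p = 0.0067) were up, and Gclc (-0.06, adjusted p = 0.9) and Gclm (0.35, adjusted p = 0.11), which make glutathione, were not called. In the direct contrast with IFN-β, IFN-λ2 gave the higher level in 23 of the 46 genes and the lower level in none at the adjusted p. Of all genes 11.9% differed in either direction, and the same IFN-λ2 arrays serve both comparisons.

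Of 43 tested genes of drug and retinoid metabolism, 12 were up, 8 at least 2-fold, and 5 were down (27.9% and 11.6%, against 11.1% and 8.14% of all genes). However, 7 were up without control replicate 2, and 2 were down with normexp and 3 without control replicate 3. The alcohol dehydrogenases Adh1, with 61.2 and 56.4 units in the control arrays and 822, 843 and 462 units in the IFN-λ2 arrays (log2 change 3.54 ± 0.35, adjusted p = 0.00086), and Adh6a, with 70.1 and 90.2 units in the control arrays and 1024, 1049 and 623 units in the IFN-λ2 arrays (log2 change 3.46 ± 0.25, adjusted p = 0.0002), led. Such enzymes oxidize alcohols including retinol, and as paralogs they can share signal. Sult1a1, a sulfotransferase, measured 186 and 195 units in the control arrays and 679, 783 and 670 units in the IFN-λ2 arrays (log2 change 1.89 ± 0.10, adjusted p = 4.4e-05). Cyp1b1, a cytochrome of the aryl hydrocarbon receptor battery, measured 47.2 and 70.9 units in the control arrays and 257, 206 and 199 units in the IFN-λ2 arrays (log2 change 1.92 ± 0.23, adjusted p = 0.0021). The other cytochrome of that battery, Cyp1a1, was at 15 units in both control arrays and at 55.2, 264 and 60.9 units after IFN-λ2, at least 5.81-fold higher (adjusted p = 0.026), with replicate 2 far above the others, and lost its call without either control array. With IFN-β, Adh1 measured 40.7 ± 15.1 units and Adh6a 111 ± 12.6 units (SD, n = 3), below all arrays with IFN-λ2.

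**Figure D5:**
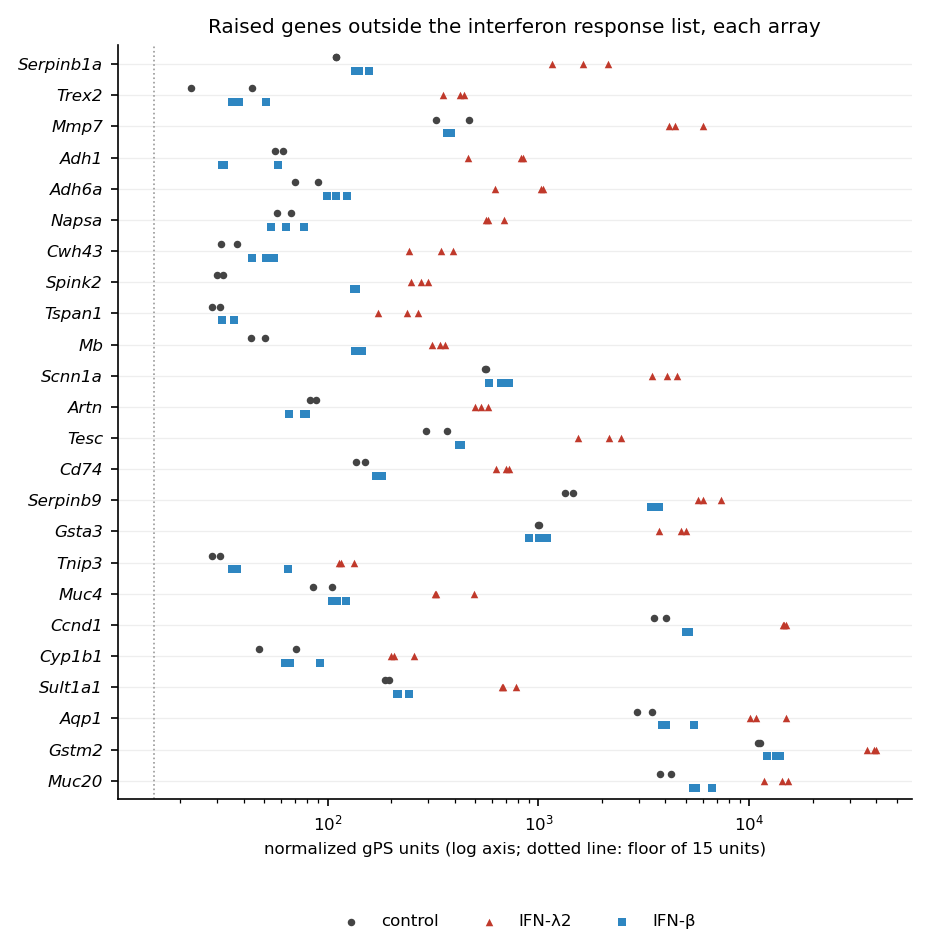
Raised genes outside the interferon response list, with the level of each array in normalized gPS units on a log axis (circles, control, triangles, IFN-λ2, squares, IFN-β; the dotted line marks the floor of 15 units). All triangles lie right of the circles, which was a condition for choosing the genes with the largest rise. Scnn1a, for example, had 3445 to 4548 units against 561 and 566 units in the control arrays.

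Other single genes outside the list rose further. Serpinb1a, an inhibitor of neutrophil proteases, measured 109 and 110 units in the control arrays and 2147, 1626 and 1156 units in the IFN-λ2 arrays (log2 change 3.86 ± 0.23, adjusted p = 8.7e-05), and Trex2, an exonuclease, 22.4 and 44.0 units in the control arrays and 427, 444 and 354 units in the IFN-λ2 arrays (log2 change 3.69 ± 0.29, adjusted p = 0.00033). Mb, myoglobin, measured 43.2 and 50.3 units in the control arrays and 343, 362 and 311 units in the IFN-λ2 arrays (log2 change 2.86 ± 0.10, adjusted p = 5.9e-06). All IFN-λ2 arrays were above the controls, and the study also reports a smaller rise of Mb with IFN-β. Of 33 tested serpins and secreted protease inhibitors, 9 were up and 3 down (27.3% and 9.09%, against 11.1% and 8.14% of all genes), and 5 were up without control replicate 3. Of the 30 genes outside the list with the largest rise, 21 differed between the IFNs in the direct contrast, where 11.9% of all genes did and the IFN-λ2 arrays are those on which the genes were chosen.

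Of 50 tested ribosome biogenesis genes, 32 were up (64.0%, against 11.1% of all genes) and 18 were not called. None was down, against 8.14% of all genes, the median was 0.40, and none reached 2-fold. Tsr1, which matures the small subunit, measured 3329 and 3695 units in the control arrays and 5548, 5759 and 6015 units in the IFN-λ2 arrays (log2 change 0.72 ± 0.08, adjusted p = 0.0016). Nop2, an RNA methyltransferase of the nucleolus, measured 31362 and 31219 units in the control arrays and 49627, 50889 and 48181 units in the IFN-λ2 arrays (log2 change 0.66 ± 0.08, adjusted p = 0.0024). The count was 17 with normexp and 14 to 24 when 1 control or IFN-λ2 array was left out, the fewest without control replicate 2, where 7.0% of all genes were up. Fbl (0.23, adjusted p = 0.13) and Ncl (0.27, adjusted p = 0.27) were not called. Myc, which drives such genes, was up (log2 change 0.64 ± 0.14, adjusted p = 0.023, and 0.075 with the block), a call lost without control replicate 3 or IFN-λ2 replicate 1 or 3. Of 53 genes of oxidative phosphorylation 7 were up and none was down, 13.2% against 11.1% of all genes, with a median of 0.20, and the count fell to 0 without control replicate 3.

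Of 87 tested genes of the cell cycle and DNA replication, 16 were down and 5 up (18.4% and 5.75%, against 8.14% and 11.1% of all genes), with a median of -0.10, and cyclin D1, described above, was the one member past 2-fold. The count of lowered genes rested on the arrays used, being 0 without control replicate 3, where 4.84% of all genes were down, and 3 without IFN-λ2 replicate 1, and with the block 3 were down and 2 up. Of 33 genes of cholesterol synthesis 6 were down (18.2%) and none was up, and 1 was down without control replicate 3 or with normexp. Of 23 genes of fatty acid synthesis 4 were down and 1 up (17.4% and 4.35%), with 2 down without control replicate 3, and of 28 of fatty acid oxidation 5 were up (17.9%) and none down, with 3 up without control replicate 2 or IFN-λ2 replicate 1. Of 40 genes of hypoxia and glycolysis 9 were down and 5 up (22.5% and 12.5%), with 5 down with the block, 4 down without control replicate 2 or IFN-λ2 replicate 1, and 1 up without control replicate 3. Ankrd37 measured 4217 and 3454 units in the control arrays and 1306, 1426 and 1745 units in the IFN-λ2 arrays (log2 change -1.37 ± 0.25, adjusted p = 0.012), with its call lost without control replicate 2. Pfkfb3, which stimulates glycolysis, measured 2407 and 1715 units in the control arrays and 6022, 5164 and 5617 units in the IFN-λ2 arrays (log2 change 1.46 ± 0.15, adjusted p = 0.00093). Vegfa, a standard target of the hypoxia factors, was not called (0.19, adjusted p = 0.2).

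The remaining lists were mixed, and several of their counts lie near the 11.1% up and 8.14% down of all genes, such as the lipid absorption genes (9.09% down, with 18.2% up) and the transporters (7.89% down, with 21.1% up). Of 26 tested brush border and digestion genes 10 were up and 2 down, the disaccharidase Lct rising from 59.6 and 47.4 units to 150, 123 and 148 units (log2 change 1.39 ± 0.13, adjusted p = 0.0008) and the protease Mep1a falling from 82.9 and 92.1 units to 37.5, 32.7 and 31.7 units (log2 change -1.37 ± 0.10, adjusted p = 0.00019), a call lost with normexp (log2 change -0.49, adjusted p = 0.09). Of 44 epithelial structure genes 11 were up and 5 down, with Krt20, a keratin of differentiated enterocytes, at 74249 and 89402 units in the control arrays and 136362, 138837 and 132871 units in the IFN-λ2 arrays (log2 change 0.74 ± 0.10, adjusted p = 0.0027). Of 22 genes of lipid absorption 4 were up and 2 down. Of 38 sugar, amino acid and monocarboxylate transporters 8 were up and 3 down. Of 15 tested markers of secretory cells 3 were up and 1 was down. Of 48 targets of TGF-β and YAP 12 were up and 7 down, and of 46 immediate early genes 12 were up and 6 down. Of 28 NF-κB genes 11 were up and 1 was down, which fell to 2 up with normexp and to 4 up without control replicate 3 or IFN-λ2 replicate 1. Of 51 cell death genes 14 were up and 7 down, of 28 targets of p53 3 and 3, and of 48 chemokines and cytokines 11 and 5. Of 18 housekeeping genes only B2m, itself inducible by IFN, was up (log2 change 1.41 ± 0.10, adjusted p = 0.00023) and only Gusb was down (log2 change -0.24 ± 0.06, adjusted p = 0.044, 0.097 with the block and 0.21 with normexp), with a median of 0.11. With normexp some of these counts were smaller, with 5 brush border genes, 3 transporters, 6 TGF-β and YAP targets and 6 immediate early genes up, and 2 cell death genes and 2 chemokines and cytokines down. With the block 5 NF-κB genes, 5 transporters, 7 epithelial structure genes and 4 immediate early genes were up, and 3 cell death genes, 3 epithelial structure genes, 1 immediate early gene and 1 p53 target were down. Leaving out 1 control or IFN-λ2 array left as few as 5 brush border genes up (without either control array), 3 transporters and 5 TGF-β and YAP targets (without control replicate 3 or IFN-λ2 replicate 1), 5 epithelial structure genes and 1 p53 target (without control replicate 3), and 4 immediate early genes (without IFN-λ2 replicate 1 or 3). Of the genes that were down it left 2 cell death genes and no p53 target (without control replicate 2), no transporter, 2 epithelial structure genes and 1 immediate early gene (without control replicate 2 or IFN-λ2 replicate 1), 2 TGF-β and YAP targets (without IFN-λ2 replicate 3), 1 brush border gene (without control replicate 3), and 3 chemokines and cytokines (without any one array but IFN-λ2 replicate 2). Gusb lost its call without any one of these arrays.

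The antiviral response is given as the reference for these changes. Of 171 tested interferon response genes, 149 were up, 131 of them at least 2-fold, and 2 were down, with a median of 2.07. Oas2, which makes the oligoadenylates that activate RNase L, had the largest log2 change of the 590 higher genes and rose from 95.6 and 67.6 units to 8387, 7954 and 7319 units (log2 change 6.61 ± 0.14, adjusted p = 1.4e-06). Csprs (5.89), whose other probes rose by less and whose near-identical copies make the gene uncertain, Zbp1, a sensor of Z-form nucleic acids (5.27), Dhx58 (5.03), Mx1 (4.90), Gbp3 (4.87) and Oasl2 (4.82) were among the 10 largest rises. Stat2 (2.17) and Irf9 (2.01), parts of the responding complex, were higher. Of 26 tested genes of MHC class I presentation 21 were up and 2 down, and of 7 of class II 3 were up. Of 32 tested receptors, kinases and SOCS proteins 5 were up and 3 down (15.6% and 9.38%, near the 11.1% and 8.14% of all genes). The receptor of IFN-λ, listed as Il28ra, measured 3460 and 2743 units in the control arrays and 3088, 2829 and 3181 units in the IFN-λ2 arrays and overlapped between the groups, as did its partner Il10rb (-0.15, adjusted p = 0.44). The feedback inhibitor Socs1 rose (log2 change 1.78 ± 0.11, adjusted p = 0.00011), whereas Socs3 (log2 change -0.70 ± 0.08, adjusted p = 0.0018), the STAT inhibitor Pias3 (log2 change -0.91 ± 0.12, adjusted p = 0.0032) and Stat6, which signals for IL-4 (log2 change -0.66 ± 0.08, adjusted p = 0.0019), were down, Pias3 not with normexp (adjusted p = 0.066).

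The core of the interferon-stimulated response element, GAAANNGAAA on either strand, was found in 1131 of the 32851 promoter windows (3.44%). It was in 53 of 126 windows (42.1%) of the higher interferon response genes, in 27 of 353 windows (7.65%) of the other higher genes, and in 6 of 184 windows (3.26%) of the lower genes. Of the lower genes 146 of 231 had a window. One window of a classical response gene and one of a raised metabolic gene are shown, Oas3 at chr5:120777610-120777909 on the minus strand and Adh6a at chr3:138313036-138313335 on the plus strand, with the core in capitals, Oas3 having measured 40.8 and 63.2 units in the control arrays and 2363, 2237 and 1830 units in the IFN-λ2 arrays (log2 change 5.39 ± 0.21, adjusted p = 1.1e-05). In Adh6a the core is read on the opposite strand.
Oas3: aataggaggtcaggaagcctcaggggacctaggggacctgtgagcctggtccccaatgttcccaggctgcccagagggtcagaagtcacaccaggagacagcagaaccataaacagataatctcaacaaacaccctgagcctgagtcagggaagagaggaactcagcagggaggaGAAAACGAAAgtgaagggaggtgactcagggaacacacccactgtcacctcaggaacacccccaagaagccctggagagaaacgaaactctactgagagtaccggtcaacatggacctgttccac
Adh6a: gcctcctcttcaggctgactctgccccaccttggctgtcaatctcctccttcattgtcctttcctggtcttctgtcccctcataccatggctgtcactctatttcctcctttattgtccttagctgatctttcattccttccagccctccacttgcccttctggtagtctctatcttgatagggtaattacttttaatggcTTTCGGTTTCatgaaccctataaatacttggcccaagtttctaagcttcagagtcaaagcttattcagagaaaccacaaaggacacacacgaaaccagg

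The lower genes were described beside the same genes after IFN-β. Their median change was -1.23 with IFN-λ2, against -0.29 with IFN-β. In the direct contrast 193 of the 231 were lower in the IFN-λ2 arrays at the adjusted p, while 11.9% of all genes differed between the IFNs. The genes were chosen on the same IFN-λ2 arrays, so that the count describes them and tests nothing. The corresponding medians were 1.41 and 0.27 for the higher genes outside the interferon response list, and 2.67 and 2.34 for those inside it. Among the lower genes with small differences, Dnajc3 (log2 difference -0.31, adjusted p = 0.3) and Ankrd37 (log2 difference -0.50, adjusted p = 0.22) did not differ between the IFNs beyond the threshold.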

How the data were processed

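RNA of IEC10 cells was labelled with Cy3 and hybridized to 1-color Agilent whole mouse genome arrays, and the 5 arrays compared here and 3 with IFN-β were fitted together. The sample labels name Trizol for the extraction and the methods the RNeasy kit. The submitters' processing notes name Agilent Feature Extraction 10.7.3.1, and the authors deposited both the scanner intensity of every feature and a table of processed intensity values, which equals the background-subtracted signal times 1500 over the array's 75th percentile, with values under 15 set to 15. Log2 of the deposited table was used here. Of 39429 non-control probes, 25615 were tested, those that exceeded 15 units on 2 or more arrays. Gene names follow a RefSeq table of GRCm38.p6 for 26412 probes by accession, 3854 by symbol and 735 by synonym, while 8428 kept the design name. The means of the 3 groups were fitted with limma 3.58.1 in R 4.3.3, without a block, with Benjamini-Hochberg adjustment over all probes, and the script was tested on simulated data.

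The genes named were drawn from the 30 genes with the largest fall, the 10 with the largest rise and the 30 with the largest rise outside the interferon response list, all past the adjusted p and 2-fold with non-overlapping groups, the falls well above background on both control arrays and the rises on all 5 arrays, up to 6 members of each list that pass 2-fold, and check genes. Genes known only by a clone, model or accession name are counted and mostly not described, and of the list members not all are named. Genes named beyond this rule are list members given with their values, or said to be chosen after their values were seen. The comparison, the 38 gene lists and the tests were chosen with earlier results of these data known, and no list was tested as a set. Alternatives were normexp background correction, quantile normalization, another floor, filter, fold, test and variance prior, the values rebuilt from the scanner output, the replicate block, the difference within slide 2 and within slide 3, the 5 arrays alone and leaving out each array. Normexp with no offset was added after the data were seen. Between replicates the median absolute log2 difference was 0.150 for the control arrays and 0.0986 to 0.124 for the IFN-λ2 arrays, and no arrays held identical values above the floor. A few genes and 1 promoter motif are not reported here.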

Additional observations from a re-analysis of the deposited data

How the results depend on the processing

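The main counts were 701 probes higher and 283 lower of 25615, while 4893 passed the adjusted p alone. With normexp 72 probes were lower and 2172 passed the adjusted p, and with normexp with no offset 85 and 1816. A floor of 50 units gave 182 lower probes, and a fold of 1.5 gave 1327 higher and 996 lower. The methods' t-test gave 305 higher and 62 lower probes at their p of 0.001, and 143 lower after Benjamini-Hochberg. Without 1 array, 650 to 710 probes were higher and 237 to 386 lower, and 2688 to 5290 passed the adjusted p, the most without IFN-β replicate 1 and the fewest without IFN-λ2 replicate 1, with 2793 and 3214 without control replicate 3 and 2, and 3241 without IFN-λ2 replicate 3. No called gene among those named reversed its direction. Of the 38 list medians, 7 changed sign with normexp, among them matrix, growth factor, identity and stem cell and Wnt genes, 3 with quantile normalization and 1 with the block, and 21, 23 and 8 moved by more than the spread between the IFN-λ2 arrays. Of the 231 lower genes, 166 kept the adjusted p without any 1 array, and of the 590 higher genes 526. Arrays of a number share a slide. Deviations of same-numbered IFN-λ2 and IFN-β arrays correlated (r = 0.28, 0.16 and 0.43), and those of IFN-λ2 and control arrays correlated negatively (r = -0.26 for replicate 2 and -0.24 for replicate 3), although with 2 control arrays their deviations mirror each other. With the replicate number as a block, 671 probes were higher, 271 lower and 3468 passed the adjusted p. Of 235 named genes, 22 lost their call with the block, 47 with normexp, 9 with quantile normalization, 46 without control replicate 2 and 47 without control replicate 3. The difference within slide 2 or slide 3 alone, which has no test, moved by more than the spread between replicates in 90 and 85 of these genes. The causes were not tested. The dimness of many lower genes and the 2 control arrays limit their precision.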
